A study of Mus musculus with 12 samples.

Results

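Expression of the core of the Hippo pathway was examined in liver cells sorted by the fluorescence of a Sox9EGFP transgene. The 10 genes were selected by symbol from the 54227 gene rows of the table: the coactivators Yap1 and Wwtr1, the TEAD factors Tead1, Tead2, Tead3 and Tead4, the kinases Lats1 and Lats2, their activator Nf2, and the TEAD cofactor Vgll4. Wwtr1 encodes the protein called TAZ. All 10 were found, and all 10 passed the filter on low values, which kept genes averaging 10 or more normalised counts across the 12 libraries.

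In this pathway the kinases LATS1 and LATS2 phosphorylate YAP and TAZ, which keeps both out of the nucleus and marks them for degradation. Merlin, the product of Nf2, brings LATS to the membrane where it is activated. When LATS is inactive, YAP and TAZ enter the nucleus and bind TEAD factors, which contact DNA, and VGLL4 competes with them for TEAD. In the liver, YAP activity is known to be high in bile duct cells and low in hepatocytes, and loss of Nf2 or of the LATS kinases is known to expand biliary-type cells. Because the pathway acts through phosphorylation and location, transcript levels describe the supply of its parts and not its activity.

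Livers of C57Bl/6 mice carrying the Sox9EGFP transgene were dissociated after a fast of 16 h, and cells were sorted into 4 populations of rising EGFP, called neg (EGFP-negative), sub (sublow), low and high. The populations shared the transgene, the strain and the fast, and differed in the sorting gate. Each was measured in 3 libraries of 12000 cells, prepared by a stranded total RNA chemistry for small inputs, and the design compares the 3 EGFP-positive populations and the negative cells with each other. The labels state neither the age of the mice, nor the sequence driving EGFP, nor whether the 3 libraries came from separate animals. The library names carry 3 suffixes that recur in all 4 populations and that the labels do not explain; the test treated the libraries as unpaired. Its p-values therefore measure the spread between these libraries, which may be technical.

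Depth recovered from the values lay between 8775387 and 15535588 reads a library, with 9039 to 12687 genes above 0. Sox9 was at 0.691, 0 and 0 normalised counts in neg and averaged 4865 ± 1570.2, 12097 ± 4429 and 13087 ± 1145 in sub, low and high (mean ± SD, n = 3). Summed endothelial markers ranged from 101963 to 150167 in neg and from 762 to 1123 in high, and summed biliary markers lay between 21.2 and 412 in neg and between 62796 and 70782 in high. In neg the endothelial and stellate sums were the highest of the lists, and the 10 hepatocyte markers summed to 395 to 987, with 1 of the 10 above 0 in all 3 libraries. In bulk samples such as these, fewer cells of a type and less RNA per cell cannot be told apart.

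No gene of the core passed the test in any of the 6 comparisons between populations. The test was limma on log2(normalised count + 1), two-sided, with Benjamini-Hochberg adjustment over 16128 genes and a threshold of 0.05. Among the 60 pairings of a core gene with a comparison, limma called 0, with 4 at an unadjusted p under 0.05 and 8 in which the libraries of the populations did not overlap. The 4 were Tead4 for sub against neg and for low against sub, and Tead3 for low against neg and for high against neg. Of all tested genes, 9.54%, 10.2%, 16% and 16.4% reached that unadjusted level in these 4 comparisons taken in the order sub against neg, low against sub, low against neg and high against neg. On the 10 libraries used for count tests, edgeR called 0 core genes and DESeq2 called 1 of 10, Tead4, for sub against neg, low against sub, high against low, high against neg and any difference among the 4 populations. In those 5, DESeq2 called 10.5%, 9.52%, 4.3%, 11.7% and 5.48% of all 15750 genes tested, so 1 of 10 is near its background in most. It called 12% for low against neg and 9.54% for high against sub, with 0 core genes. The shares of edgeR were 1.67%, 1.75%, 0.457%, 4.08% and 4.6% in the same 5, and 4.7% and 1.73% in the other 2.

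Against that count stands the share of all tested genes. For sub against neg limma called 1.19% of them and 9.68% had no overlap between libraries, and 1 of the 10 core genes, Tead4, did not overlap. The share called was 0.744% for low against sub, with 11.7% of all genes and 2 core genes, Tead4 and Lats2, without overlap. High against low gave 0% called by limma (4.24% at an unadjusted p under 0.05) and 7.34% without overlap, with Lats2 the core gene among them. Low against neg gave 4.69% called and 16.9% without overlap, and 0 core genes were without overlap. High against neg also gave 4.69% called and 18.8% without overlap, with Yap1 and Tead3 in that set. For high against sub the share called was 0.986% (10.2% at an unadjusted p under 0.05) and 13.1% had no overlap, among them Yap1 and Nf2. With 0 to 2 of 10 core genes without overlap in a comparison, the core stood near these shares. The comparisons share populations and are not independent of each other.

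The median log2 fold change of the 10 genes, which moved both ways, was 0.40 for sub against neg, 0.10 for low against sub, 0.28 for high against low, 0.08 for low against neg, 0.75 for high against neg and 0.09 for high against sub. Over all tested genes the corresponding medians were 0, 0, 0, 0, 0.13 and 0.20. The median standard error was 1.16 for the core and 2.35 over all genes. In a test for any difference among the 4 populations (moderated F test, limma), the adjusted p of the core genes ranged from 0.12 for Tead4 to 0.999 for Wwtr1, and 4.23% of all genes passed.

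**Figure D1:**
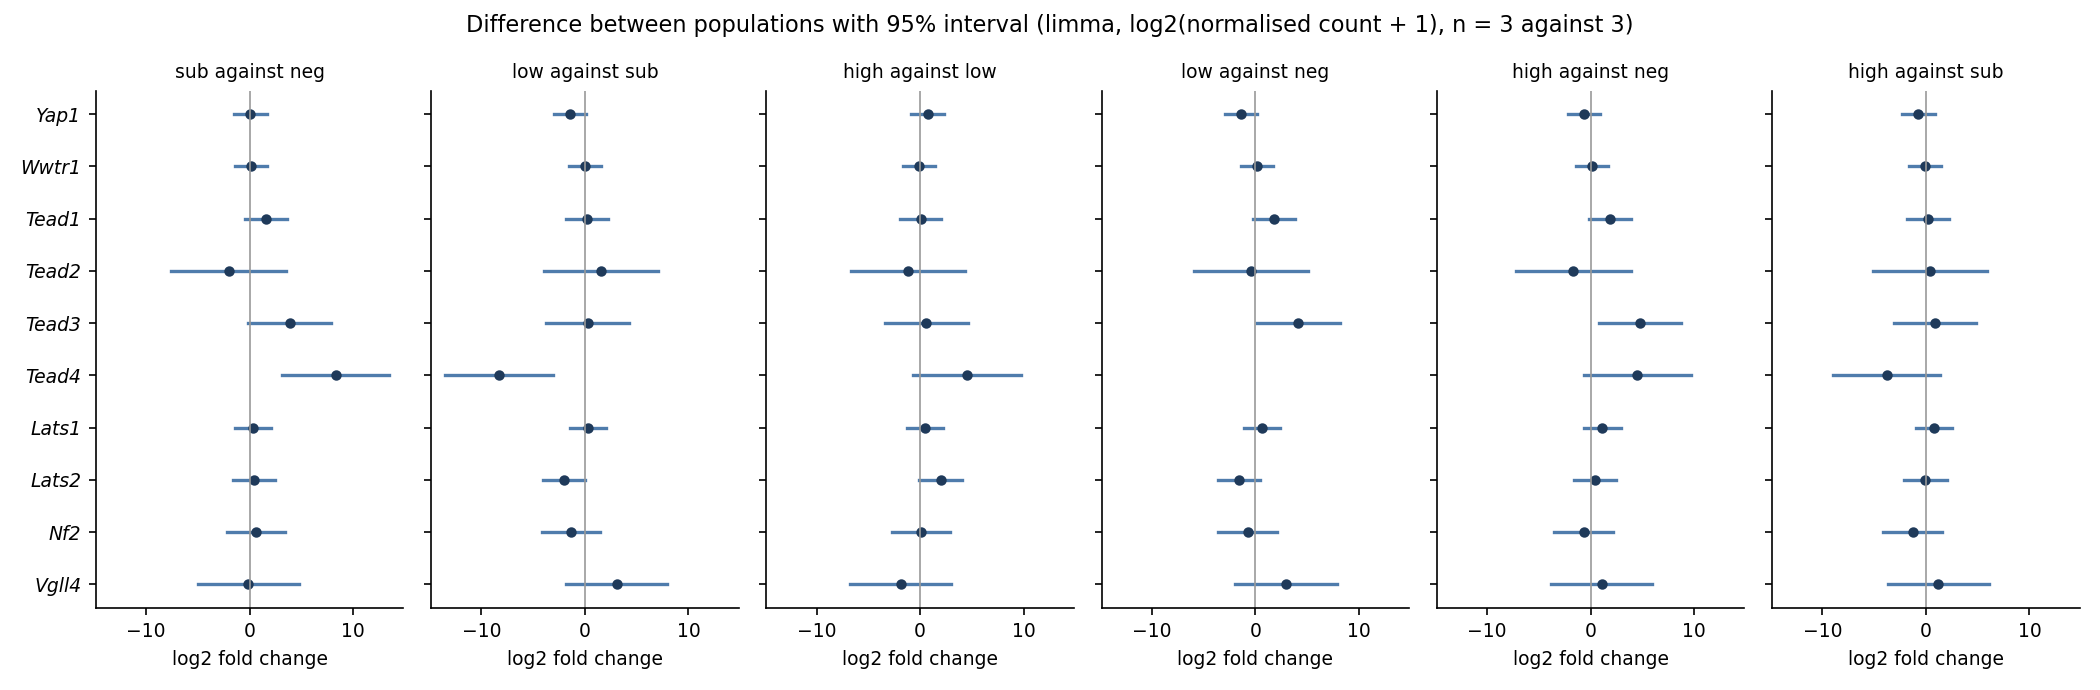
Log2 fold change of each core gene (rows) in the 6 comparisons (panels), as points with 95% intervals from limma on log2(normalised count + 1), 3 libraries against 3. Most intervals span 0; those of Tead4 for sub against neg and low against sub, and of Tead3 for low against neg and high against neg, do not, although none passed after adjustment, and Tead4 has no point for low against neg because it was at 0 in both.

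Short promoter stretches are shown for the core genes whose RefSeq promoter holds the TEAD motif GGAATG, because YAP and TAZ reach DNA through TEAD factors and the pathway is known to feed back on its own genes. The RefSeq promoter table (GRCm38.p6, from 250 bases before to 50 after each start) had entries for 8 of the 10 genes, and Tead1 and Tead4 were without an entry. On either strand, 5 of the 8 genes held the motif, against 16.6% of all 27025 genes in the table. By entry, 7 of 13 held it, against 14.7% of all 32851, and both Wwtr1 entries held the same copy. Each line gives 30 bases read 5′ to 3′ along the motif's strand, with the motif in capitals:
Yap1, chr9:8004720-8004749: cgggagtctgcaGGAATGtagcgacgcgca
Wwtr1, chr3:57576029-57576058: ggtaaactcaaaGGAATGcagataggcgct
Tead3, chr17:28350970-28350999: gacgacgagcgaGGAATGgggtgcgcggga
Tead3, chr17:28350706-28350735: gccggaatgtacGGAATGagcccggccgga
Lats2, chr14:57746102-57746131: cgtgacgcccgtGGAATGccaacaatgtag
Vgll4, chr6:114969268-114969297: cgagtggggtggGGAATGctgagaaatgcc
All 6 lie at genes on the minus strand, and only the second Tead3 stretch reads against its gene's strand; that stretch holds a second copy of the same letters, in lower case, just before the capitals. Positions are those of the motif base that comes first along the gene's strand. For the second Tead3 stretch this is the last base of GGAATG as printed. They were -141 from the start of Yap1, -136 and -170 from 2 starts of Wwtr1, and -182 and -123 from 2 starts of Tead3. The others were -82 from the start of Vgll4 and 5 within the transcript of Lats2. A further Tead3 copy lay at position 3. The promoters of Tead2, Lats1 and Nf2 did not hold these letters in this window. A match is a description of the sequence, not a binding site.

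Yap1, the coactivator that gives the pathway its output, was present in every library (annotated at chr9:7931999-8004596, minus strand, GRCm38). Its normalised counts were 1659, 2152 and 2788 in neg (libraries 1 to 3), 2757, 1722 and 2384 in sub, 1146, 2324 and 209.6 in low, and 1092, 1657 and 1399 in high. All 3 high libraries lay below all 3 of neg and of sub, although the highest high library and the lowest neg library were at 1657 and 1659. From neg to high the means were 2199.85 ± 566, 2288 ± 524, 1226 ± 1059 and 1383 ± 283 (SD, n = 3). The log2 fold change was -0.66 ± 0.75 (SE) for high against neg (adjusted p = 0.711) and -0.72 ± 0.75 for high against sub (adjusted p = 0.757). For low against sub it was -1.45 (95% interval -3.02 to 0.13, adjusted p = 0.535), and without the third low library it was -0.46.

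Wwtr1 (chr3:57455649-57575910, minus strand), the TAZ coactivator, showed no order of populations. It was at 1064, 1723 and 684 in neg, 1719, 784 and 1325 in sub, 706, 1075 and 2354 in low, and 963, 1376 and 1172 in high. Every pair of populations overlapped, and the 4 means lay between 1157 ± 526 in neg and 1378 ± 865 in low. The largest of its differences, low against neg, was 0.17 on the log2 scale, with a 95% interval from -1.37 to 1.71 (limma, adjusted p = 0.996). It changed sign without the third neg library (-0.16) or the third low library (-0.31). Its standard error of 0.74 was the smallest among the core genes, and across all comparisons its intervals ran from -1.61 to 1.71.

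**Figure D2:**
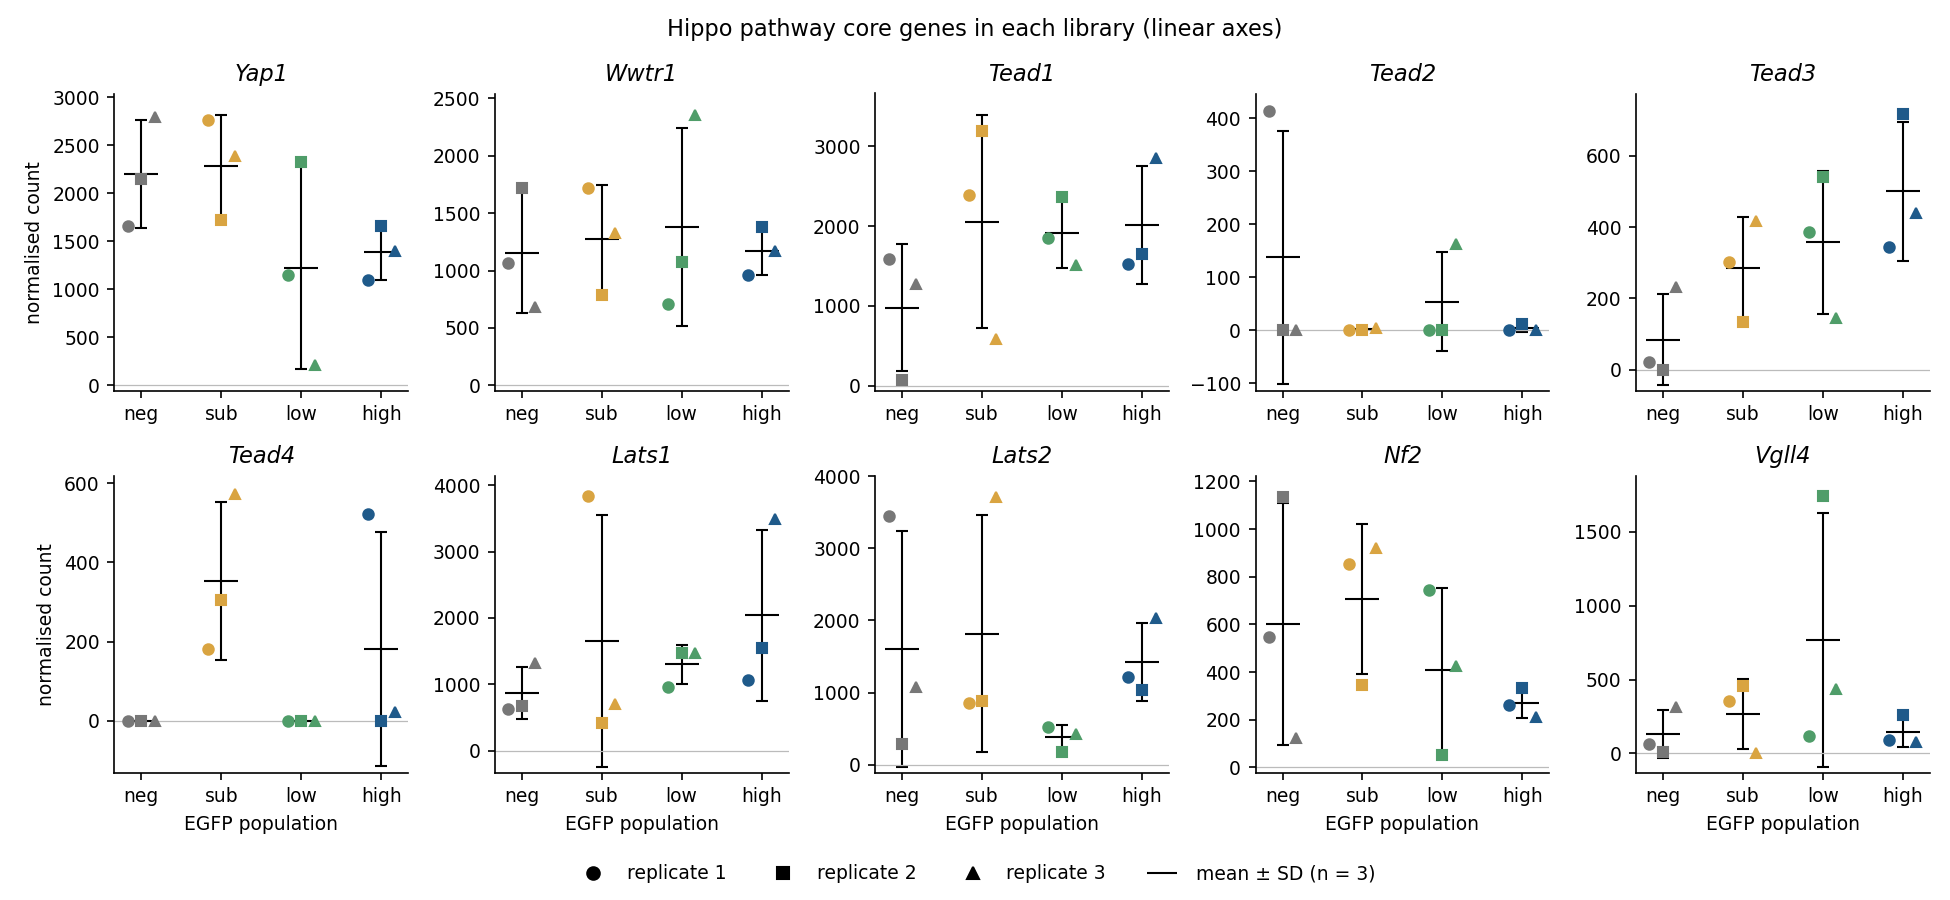
Normalised counts (linear axes, separate scale per gene) of the 10 core genes in each library of neg, sub, low and high; symbols give the replicate and bars the mean ± SD (n = 3). Tead4 is at 0 in every neg and low library and above 0 in every sub library, Lats2 in low sits between 184 and 525, below every sub and high library, and Yap1 and Wwtr1 stand out in the third low library.

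Yap1 was above Wwtr1 in 11 of 12 libraries. In those 11, the level of Wwtr1 per kb over that of Yap1 per kb (longest annotated transcript) was between -2.20 and -0.35 on the log2 scale. In the third low library it was 3.32, with Yap1 at its lowest (209.6, from 255 reads) and Wwtr1 at its highest (2354) of all 12 libraries. The depth of that library, 13878119 reads, was within the range of the rest. In high the 3 values were -0.35, -0.44 and -0.43, with an SD of 0.05, against SDs of 0.91 in neg, 0.23 in sub and 2.55 in low. Summed, Yap1 and Wwtr1 came to 3357 ± 585, 3563 ± 993, 2605 ± 774 and 2553 ± 489 normalised counts from neg to high, with overlapping ranges.

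Among the TEAD factors, Tead1 was the main family member in most libraries, while Tead4 was above 0 in 5 libraries and Tead2 in 4. Tead1 (chr7:112679318-112906807, plus strand) was at 1583, 75.8 and 1277 in neg, 2391, 3192 and 583 in sub, 1850.2, 2366 and 1509.8 in low, and 1520.4, 1656 and 2860.2 in high. The second neg library was far below the rest, and the third sub library came next, and neg overlapped every other population. For high against neg the log2 fold change was 1.85 ± 0.97 (adjusted p = 0.362), and it was 0.44 without the second neg library.

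Tead3 (chr17:28331671-28350817, minus strand), a TEAD paralog, had its lowest mean in neg and its highest in high. Its values were 22.1, 0 and 230.8 in neg, 301, 134 and 418 in sub, 385, 541 and 145 in low, and 344, 718 and 439 in high. All 3 high libraries were above all 3 neg libraries, while sub and low overlapped with both. The log2 fold change for high against neg was 4.77 ± 1.91 (95% interval 0.78 to 8.76, adjusted p = 0.193, limma), and 2.71 without the second neg library, in which Tead3 was at 0. For low against neg it was 4.16 (adjusted p = 0.289).

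Tead4 (chr6:128224288-128300823, minus strand) had the smallest adjusted p among the core genes. It was at 0 in all 3 libraries of neg and of low, at 183, 306 and 574 in sub (248, 267 and 575 reads), and at 523, 0 and 22.1 in high. The sub mean, 354 ± 199.8, was at least 96.5-fold higher than neg and at least 139-fold higher than low, computed against a floor of 3 reads in a library. The fitted log2 fold change, which depends on the added count of 1, was 8.32 ± 2.48 for sub against neg, with an adjusted p of 0.156 (limma), and -8.32 for low against sub, with an adjusted p of 0.153. DESeq2 on 10 libraries, which leave out the third sub and the second high library, passed the threshold for Tead4 in both comparisons, with 10.5% and 9.52% of all genes called, whereas edgeR on the same libraries gave an adjusted p of 0.659 for low against sub. High followed neither sub nor low: its first library was within the sub range and its second at 0.

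Tead2 (chr7:45215753-45233644, plus strand) was near 0 outside 2 libraries. The first neg library held 414 and the third low library 162, the second high library 12.1 and the third sub library 4.99, and the other 8 libraries were at 0. These scattered values gave no order of populations, and the log2 fold change for sub against neg, -2.04 ± 2.63 (adjusted p = 0.820), became 0.86 without the first neg library. Tead2 overlaps Cd37 on the opposite strand; Cd37 was at 0 in every library.

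Per kb of longest transcript, Tead1 was the highest TEAD in 9 of 12 libraries, and per kb of median transcript in all of them. By the longest transcript, its share of the summed TEAD level per kb was 54.9% to 60.3% in low and 14.7% to 68.5% in sub. It ranged from 34.2% to 63.4% in high and from 55.0% to 100% in neg. Tead4 made up 14.6% to 47.0% of that sum in sub and 0% to 38.1% in high. These shares depend on the length taken, as the longest Tead1 transcript has 9964 bases and its median transcript 1248. In sub the mean of Tead1 was 206 and that of Tead4 115 per kb of longest transcript. Per kb of median transcript these means were 1647 and 206. By the longest transcript the sum was 424 ± 38.3 in sub, 336 ± 91.2 in low and 442 ± 12.5 in high. In neg it was 169 ± 145, with single libraries from 7.61 to 289. All 3 sub and all 3 high libraries were above every neg library in this sum, and low overlapped with neg. This depends on the length taken. Without division by length, the third sub library, at 1579, lay below the first neg library, at 2019, while all 3 high libraries stayed above neg. By the median transcript, the first neg library lay above the third sub library and above the first and the second high library.

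**Figure D3:**
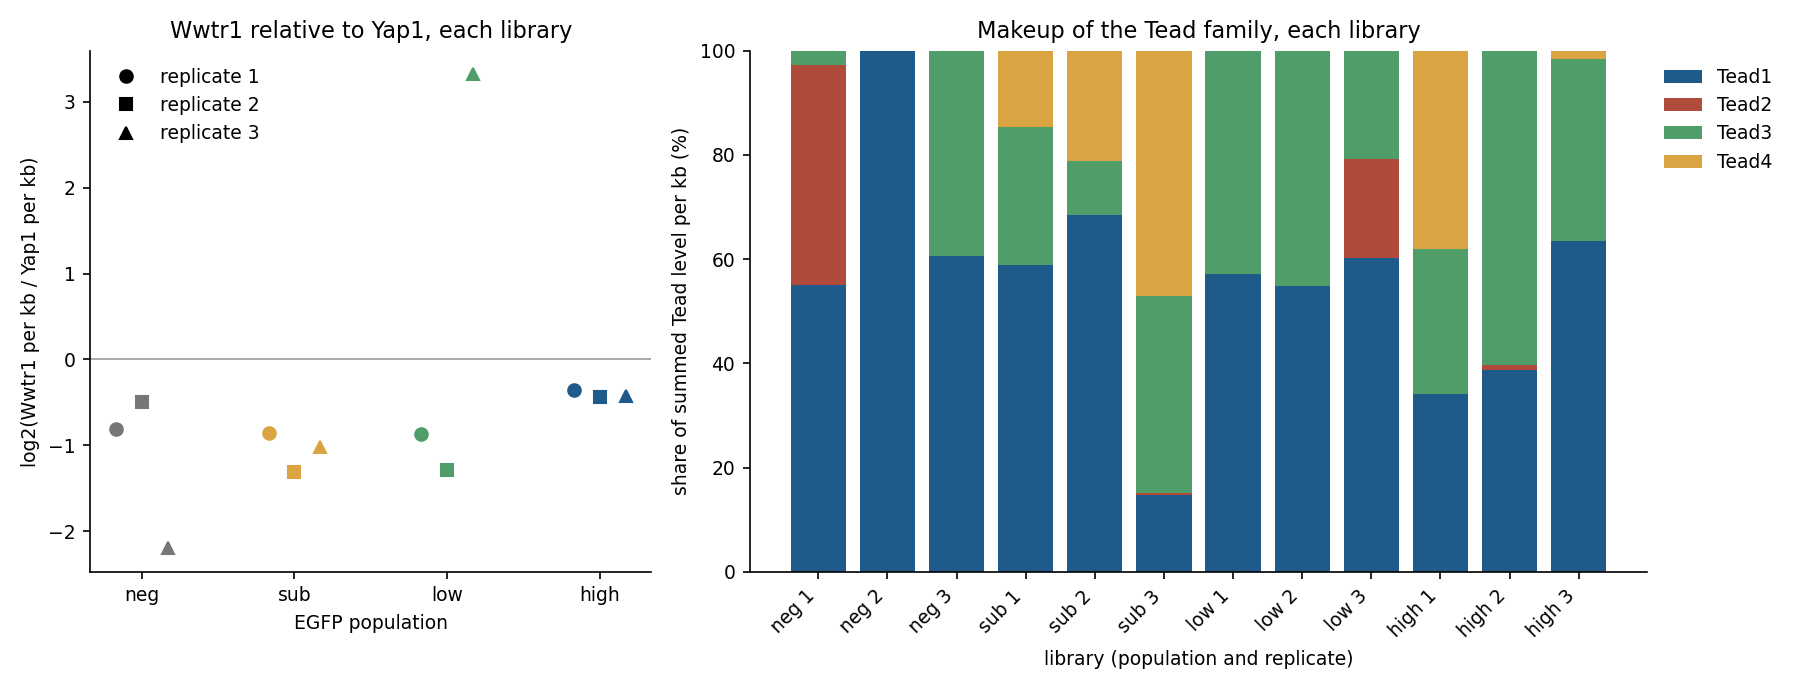
Left, log2 of the Wwtr1 level per kb over the Yap1 level per kb in each library; right, share (%) of Tead1, Tead2, Tead3 and Tead4 in the summed TEAD level per kb in each library, with lengths of the longest annotated transcript. On the left only the third low library, at 3.32, lies above 0; on the right Tead4 is present in the sub libraries and 2 high libraries, and Tead1 is the whole of the second neg library.

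Vgll4 (chr6:114860628-114969994, minus strand), which competes with YAP for TEAD, varied strongly inside each population. It was at 65.6, 8.56 and 315 in neg, 352, 453 and 0 in sub, 120.2, 1742 and 439 in low, and 89.1, 262 and 79.2 in high. The highest mean, 767 ± 859 in low, rested on the second low library, and every pair of populations overlapped. Its largest difference, low against sub, was 3.06 ± 2.33 on the log2 scale (adjusted p = 0.699) and fell to 0.18 when the third sub library, at 0, was left out.

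Neither LATS kinase passed the test in any comparison. Lats1 (chr10:7681214-7716460, plus strand), which phosphorylates YAP and TAZ, was at 626, 667 and 1315 in neg, 3839, 418 and 702 in sub, 960.3, 1474 and 1469 in low, and 1072, 1547 and 3497 in high. One library in sub and one in high set the spread of those populations, and all populations overlapped. Its largest difference, high against neg, was 1.13 ± 0.84 on the log2 scale (adjusted p = 0.553), and 0.65 without the third high library.

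Lats2 (chr14:57689662-57758388, minus strand), the paralogous kinase, had its lowest mean in low. It was at 3441, 289 and 1083 in neg, 856, 878 and 3712 in sub, 525, 184 and 427 in low, and 1211, 1029.9 and 2035 in high. All 3 low libraries lay below all 3 of sub and all 3 of high, and the second neg library fell inside the low range. The mean in low, 379 ± 176, compares with 1815 ± 1642 in sub and 1425 ± 536 in high. The log2 fold change was -2.02 ± 0.97 for low against sub (95% interval -4.06 to 0.02, adjusted p = 0.496) and 1.98 ± 0.97 for high against low (-0.06 to 4.02, adjusted p = 1). Low against sub was -1.33 without the third sub library. An annotated gene on the same strand, Gm49361, overlaps Lats2 and was at 1755 in the second neg library and at 0 in all others, so the counting could have divided reads there; summed with it, Lats2 in that library was at 2044, and all 3 neg libraries then lay above all 3 low libraries.

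Nf2 (chr11:4765845-4849536, minus strand), which encodes merlin, had its lowest mean and its smallest spread in high. Values were 547, 1134 and 124 in neg, 854, 345 and 921 in sub, 745, 51.0 and 426 in low, and 264, 335 and 212 in high. All high libraries were below all sub libraries, with 335 against 345 at the closest, and neg spanned both ranges; low, from 51.0 to 745, overlapped with each. The log2 fold change for high against sub was -1.28 ± 1.35 (adjusted p = 0.757) and for low against sub -1.35 ± 1.35 (adjusted p = 0.766), and the latter was -0.20 without the second low library.

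Ordered by level per kb of longest transcript over the 12 libraries, Yap1 came first at 425, followed by Wwtr1 at 265, Lats2 at 252, Lats1 at 203, Tead1 at 175, Vgll4 at 161, Tead3 at 110.4, Nf2 at 105, Tead4 at 43.5 and Tead2 at 14.5. With the median transcript length in its place, Lats2 and Tead1 stood at the top at 1508 and 1393, and Yap1 next at 431, so the order of these genes depends on which transcript was taken. Tead4 and Tead2 were last by either length. Within populations, the median SD of the core genes on the log2 scale was 1.71, 1.03, 0.93 and 0.53 from neg to high, against 1.68, 1.76, 1.55 and 1.32 over all tested genes. These medians were not matched for level. By mean level, Tead2 and Tead4 stood at percentiles 24.4 and 46.8 of the tested genes, and the rest of the core between 65.7 and 93.3.

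Correlations between core genes spanned both signs. Over the 12 libraries, the highest Pearson r of log2(normalised count + 1) between core genes was 0.78 for Tead1 with Tead3, and the lowest was -0.64 for Nf2 with Vgll4; Yap1 and Wwtr1 were at -0.40. The second neg library was the lowest in both Tead1 and Tead3. Among 9613 genes with a mean of at least 100, those most like Yap1 by the same measure were Apbb2 (0.95), Gadd45b (0.95) and Mesd (0.94), and without the third low library these were at 0.76, 0.73 and 0.71. For Wwtr1 they were Acads (0.84), Gm49077 (0.82) and Dido1 (0.81), at 0.88, 0.77 and 0.77 without that library. Depth and the markers of cell types differ between the libraries, and these values describe likeness only.

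Other genes of the pathway did pass the test. Of 16 upstream kinases and adaptors, limma called 1 higher for sub against neg, 1 lower for low against sub, 3 higher and 3 lower for low against neg, 2 higher and 1 lower for high against neg, and 1 lower for high against sub. For high against low limma called 0 of them, with 0 at an unadjusted p under 0.05 and 0 called by edgeR or DESeq2, where 0%, 4.24%, 0.457% and 4.3% of all genes were so called. Over all tested genes limma called 1.04% higher and 0.149% lower for sub against neg, 0.13% and 0.614% for low against sub, 2.55% and 2.15% for low against neg, 2.44% and 2.25% for high against neg, and 0.118% and 0.868% for high against sub. Wwc1, the KIBRA scaffold that acts with merlin upstream of LATS, was at 0 in all 3 neg libraries and averaged 2305 ± 319 in sub, 4168 ± 607 in low and 4464 ± 1096 in high. It was at least 628-fold, 1136-fold and 1217-fold higher in sub, low and high than in neg (limma, adjusted p = 2e-06, 4.38e-07 and 3.47e-07). Fitted on sub and neg alone, the first of these was 0.301. Nf2 itself did not share this order.

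Dchs1 and Fat4, the cadherins that form a ligand and receptor pair at the cell surface, ran the other way. Dchs1 was at 2252, 1772 and 1520.2 in neg and 968, 706 and 673 in sub, and at 0 in every low and high library. It was at least 725-fold lower in low and at least 609.6-fold lower in high than in neg (adjusted p = 0.00521 and 0.00492). Against sub its adjusted p was 0.0442 in low and 0.0373 in high, and each of these calls was lost in more than 10 of 25 alternatives, among them those without the first or the third neg library or any library of sub or of the EGFP-positive population compared. Fat4 fell from 6676 ± 1637 in neg to 230.1 ± 371 in low (adjusted p = 0.016), 29.0-fold by the means, a call lost without any 1 of the 3 neg libraries or the second or the third low library. Its fitted log2 fold change of -7.86 rests in part on the second low library, at 0, and the added count. That value ran from -10.14 to -5.46 with 1 library left out and was -4.66 in edgeR on 10 libraries. Fat4 averaged 1777 ± 2064 in sub and 114 ± 87.8 in high. For high against neg limma did not call it, while edgeR and DESeq2 on 10 libraries did, with 4.08% and 11.7% of all genes.

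Taok2, a kinase that acts on the MST kinases, fell from 4658 ± 726 in neg to 881 ± 851 in low (-2.97 on the log2 scale, adjusted p = 0.0264). It averaged 2526 ± 902 in sub and 889 ± 275 in high, where limma did not call it against neg. Mob1b, a LATS coactivator, was at 400.04, 0 and 0 in neg and at 1153, 476 and 1096 in low, 6.81-fold by the means. It averaged 1073 ± 177 in sub and 1113 ± 1041 in high, both above its mean of 908 ± 375 in low, and limma did not call these against neg. For low against neg, its fitted log2 fold change of 6.84 (adjusted p = 0.0461) rests on the 2 neg libraries at 0 and the added count. That value ran from 5.40 to 9.72 with 1 library left out, and was 2.78 in DESeq2 on 10 libraries. Pard3, a polarity adaptor, was higher in low by 3.46 (adjusted p = 0.0412) and in high by 3.36 (adjusted p = 0.0483). These calls are close to the threshold and were lost in 10 of 25 alternatives for Taok2, 18 for Mob1b, and 14 and 15 for Pard3, among them many that left out 1 library.

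Of 14 tested genes for YAP and TAZ binders and inhibitors, limma called 2 lower for low against neg and 1 lower for high against neg, where 2.15% and 2.25% of all tested genes were called lower, and 0 in the other 4 comparisons, where edgeR called 0 and DESeq2 called 1, Vgll3 for low against sub, with 9.52% of all genes. At an unadjusted p under 0.05 in limma stood 5 of the 14 for sub against neg, 3 for low against sub, 0 for high against low and 2 for high against sub, with 9.54%, 10.2%, 4.24% and 10.2% of all tested genes. Both genes called by limma are angiomotin-type proteins, which hold YAP at junctions. Amotl1 fell from 6250 ± 505 in neg to 1048 ± 568 in low (-2.75, adjusted p = 0.0177) and to 1273 ± 696 in high (-2.42, adjusted p = 0.0372). Leaving out the second or the third neg library or the first low library ended the former call, and any neg library or the first or second high library the latter. The call for high against neg was lost in 11 of 25 alternatives. Among these were edgeR, DESeq2 and limma on 10 libraries. Amotl2 fell from 7760 ± 2403 in neg to 1544 ± 874 in low (-2.43, adjusted p = 0.00667), a call lost in 2 of 25 alternatives. Of 10 genes of STRIPAK, a phosphatase complex that counters the MST kinases, limma, edgeR and DESeq2 each called 0 in every comparison, with 0 or 1 at an unadjusted p under 0.05 in limma, where 4.24% to 16.4% of all genes reached that level and 0% to 4.69% were called.

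**Figure D4:**
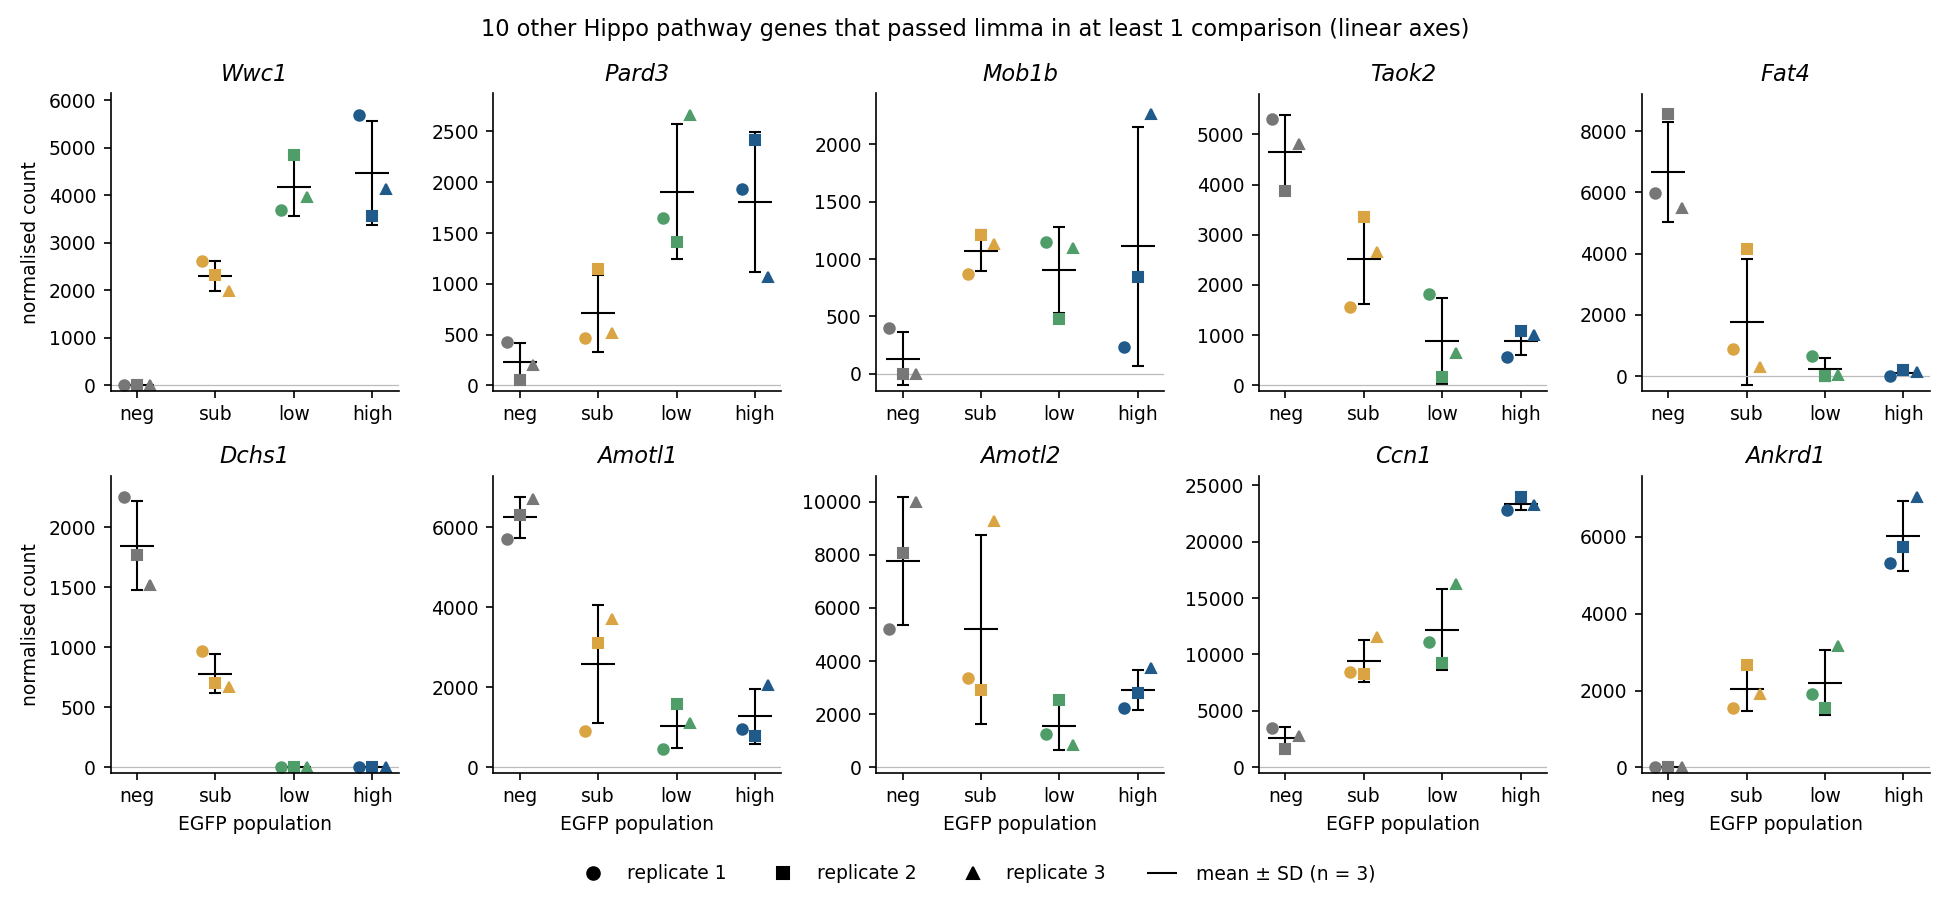
Normalised counts (linear axes) of 10 other Hippo pathway genes in each library, with symbols for replicates and bars for mean ± SD (n = 3). Wwc1 and Ankrd1 are at 0 in the 3 neg libraries, Dchs1 is at 0 in the 6 low and high libraries, and the 3 high libraries of Ccn1, at 22781 to 23924, lie above all others.

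Of 21 tested YAP target genes, limma called 2 higher for sub against neg, 1 lower for low against sub, 3 higher and 3 lower for low against neg, 3 higher and 1 lower for high against neg, and 1 higher and 1 lower for high against sub. Over all tested genes the shares higher and lower were 1.04% and 0.149% for sub against neg, 0.13% and 0.614% for low against sub, 2.55% and 2.15% for low against neg, 2.44% and 2.25% for high against neg, and 0.118% and 0.868% for high against sub. For high against low it called 0, with 4 at an unadjusted p under 0.05 against 4.24% of all genes, while edgeR called 0 and DESeq2 called 1, Fjx1, with 4.3% of all genes. Amotl2, one of the binders, is also on this list and is 1 of the 3 lower in low than in neg. Ccn1 (CYR61, a matricellular protein) averaged 2611 ± 961, 9449 ± 1853, 12194 ± 3608 and 23324 ± 574 from neg to high, and rose against neg in all 3. The fit without the variance trend gave none of these calls, the fit of only the populations compared lost those of sub and low, and DESeq2 on 10 libraries lost that of sub. Its call for high against sub (1.32, adjusted p = 0.0243) was lost without the first or second sub library or any high library. Ankrd1, a nuclear cofactor, was at 0 in neg and at 2038 ± 570, 2204 ± 848 and 6018 ± 898 in sub, low and high, and Igfbp3, a secreted IGF binding protein, was at 3260.5 ± 1988 in neg, 7723 ± 2680 in sub and at or below 1 read in low and high, with its call for low against sub lost without the second sub library. In the fit of only the populations compared the calls of Igfbp3 for low against sub and of Ankrd1 for sub against neg were lost, and limma on 10 libraries lost that of Igfbp3 for high against sub. Fjx1, Asap1 and Arhgef17 each passed in 1 comparison with neg, the first higher in low, the second lower in low and the third higher in high, and these calls were lost in 8, 17 and 15 of 25 alternatives. Ccn2 (CTGF), the other common readout, was at 2550.1 ± 869, 4224 ± 686, 596 ± 940 and 893 ± 342 in the same order and did not pass. Targets and core genes were measured in the same libraries, and the targets of this list did not all move one way.

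Markers of cell types moved with the populations across which these genes were compared. The summed level of 10 endothelial markers was 127335 ± 24202, 36922 ± 3801, 1749.6 ± 531 and 912 ± 188 from neg to high, and that of 12 stellate and mesenchymal markers was 33185 ± 10013, 34573 ± 6957, 1958 ± 1002 and 1701 ± 1037. Biliary markers summed to 187 ± 202, 26185 ± 8433, 75470 ± 13901 and 66458 ± 4034, and hepatocyte markers to 771 ± 327, 8794 ± 2693, 17799 ± 4654 and 21586 ± 2685. Smooth muscle markers summed to 9012 ± 3916, 10349 ± 3229, 1745 ± 277 and 1685 ± 403. Macrophage markers summed to 213 ± 316, 493 ± 80.6, 941 ± 241 and 1045 ± 519. Of the 8 macrophage markers, 0, 0, 1 and 1 were above 0 in all 3 libraries of neg, sub, low and high. Of the 10 hepatocyte markers these numbers were 1, 4, 5 and 5, so both sums rest on part of their lists. Dchs1, Fat4, Amotl1 and Amotl2 were highest in neg, as the endothelial sum was, and Wwc1 and Tead3 were lowest there, as the biliary sum was. Igfbp3 was higher in neg and sub than in low and high, as the stellate and smooth muscle sums were. Tead4 had neither order, being at 0 in neg and low, above 0 in sub, and at 523, 0 and 22.1 in high, where the endothelial sum was lowest. The part of cell makeup in any of these differences was not tested.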

How the data were processed

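The authors deposited 1 table of normalised counts per gene and library, a signal with 54227 symbols and 12 columns, each matched to its sample by the name in the description. The submitters' processing notes name Salmon, DESeq2 1.26.0 and mm10; which annotation was used, and whether reads were counted by strand, is not given in the sources used here. In each column 100% of the values were whole multiples of 1 value (tolerance 0.01), so reads were recovered by division, 8775387 to 15535588 a library. In the third sub and second high library 1 read was worth close to 1 (0.997 and 1.01), and count tests used the other 10 libraries.

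Populations came from the titles. The test was limma 3.58.1 in R 4.3.3 (trend, log2 of the normalised count + 1, all 12 libraries, population as the only term) on the 16128 genes with a mean of at least 10, with adjustment over all of them. Reported for each core gene were the comparison with the smallest p and every comparison without overlap between libraries. Other pathway genes were named where they passed in a comparison between populations, at most 3 a direction, list and comparison, with Ccn1 and Ccn2 as readouts. Crim1, on the list of YAP targets, passed only the test for any difference (moderated F test, limma, adjusted p = 0.047). Genes most like a core gene were named for Yap1 and Wwtr1. The members and lists were chosen with earlier results of these data known.

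Alternatives were edgeR 4.0.16 and DESeq2 1.42.0 on 10 libraries, adding 0.5 or 5 in place of 1, omitting the filter or raising it to 100, scaling to equal totals or by quantiles, array weights, a fit without the trend, a replicate block, a fit of the compared populations alone, and omission of each library. Limma on the 10 libraries was added after the files were seen. Methods were tested on simulated data with a fixed dispersion, in which no gene was set to 0 in a whole population. That test cannot show how the methods behave for genes such as Tead4. Gene positions are from GENCODE M21 (GRCm38). A count of 0 or a read count covers counting error only.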

Additional observations from a re-analysis of the deposited data

How the results depend on the processing

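The number of core genes called stayed at 0 in 169 of 174 alternative values. The other 5 were DESeq2 on 10 libraries, which called 1 core gene, Tead4, for sub against neg (adjusted p = 0.0124), low against sub (0.0115), high against low (0.0188), high against neg (0.00977) and any difference among populations (0.0432). In these 5 DESeq2 called 10.5%, 9.52%, 4.3%, 11.7% and 5.48% of all genes. The 10 libraries leave out the second high library, in which Tead4 was at 0. On the same 10 libraries limma and edgeR called 0. Over all its alternatives the adjusted p of Tead4 ran from 0.0124 to 0.652 for sub against neg and from 0.0115 to 0.659 for low against sub.

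Reversals occurred in leave-one-out fits of Tead2 for sub against neg (-3.49 to 0.86) and of Wwtr1 for low against neg (-0.31 to 0.56). The other reported comparisons of core genes that were followed through the alternatives kept their direction. Tead3 for low against neg was not among those followed. Tead2 was not tested at a mean of at least 100. The deviations of same-numbered libraries from their population means had 18 correlations with a median of 0.0114, against -0.00364 for 36 pairs of different numbers. As 0 exceeded 0.1, the level set for pairing, the libraries were left unpaired, although 8 of 12 correlated best with their own number, where 3 of 9 candidates share it; this is a hint from the data and not from the design. With the replicate block, 0 core genes were called in each comparison, Tead4 had an adjusted p of 0.186 for sub against neg, the calls of Dchs1 against sub and of Pard3 were lost, and 621 genes differed among populations, against 682 without it.

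Over all genes the number called depended on the tool: 192 for sub against neg became 1649 with DESeq2, 115 with limma on 10 libraries and 0 with only the 2 populations compared. For low against neg, 757 ranged from 203 to 1887 and for high against neg, 757 ranged from 341 to 1847. For low against sub, 120 ranged from 0 to 1500, and from 10 to 126 when 1 library was left out. For high against sub, 159 ranged from 8 to 1502, and for high against low, 0 ranged to 678 with DESeq2, with 72 by edgeR. Leaving out 1 library took high against sub to between 46 and 176, high against neg to between 424 and 773, low against neg to between 445 and 763 and sub against neg to between 135 and 239. Falls by over 1.5 times came without any sub library, the second or the third low library or any neg library for low against sub, without any sub or high library or the first neg library for high against sub, without any high library for high against neg, and without the second or the third low library for low against neg. The cause was not tested. With 3 libraries a population and a median standard error of 1.16 for the core, small differences were not detectable.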
